A study of Mus musculus with 6 samples.

Results

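The collagen genes are the genes of the chains that assemble into the collagens, the main structural proteins of the extracellular matrix. They were taken as every gene whose symbol in the array's annotation has the form Col, a type number, the letter a and a chain number, read from a probe set that names no other gene. This gave 44 genes of 21996 in all. Expression was measured on single-colour Affymetrix arrays in adipocytes made from C3H10T1/2, a mouse mesenchymal line that can become fat cells in culture. All cultures are labelled as 9 days of differentiation and received adenovirus for 72 h, 50 infectious units being given per cell (the multiplicity of infection). The 3 control replicates received a virus with a scrambled hairpin RNA (scramble), and 3 further replicates a virus with a hairpin against Zc3h10, which encodes a CCCH zinc finger protein that binds RNA (Zc3h10 shRNA). The targeting virus is 1 construct with the hairpin under a U6 promoter, and both groups carry adenovirus, so uninfected cells were not part of the comparison.

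Collagen chains wind around each other into helices that cells secrete, trim, assemble and cross-link outside the cell. Fibrillar collagens make the cables of connective tissue, FACIT collagens (fibril-associated collagens with interrupted helices) coat those cables, type IV forms the sheet of basement membranes, and type VI forms beaded filaments close to cells. Each fat cell in adipose tissue is wrapped in a basement membrane with type VI collagen around it, and fibroblasts and fat cell precursors make much of the fibrillar matrix.

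In the Zc3h10 shRNA cells 2 collagen genes were higher, Col12a1 and Col5a2, 2 were lower, Col15a1 and Col6a3, and 40 were not called. Col12a1, a FACIT chain, was 2.14-fold higher, and Col15a1, a chain of the basement membrane zone, was 2.07-fold lower. Called means an adjusted p under 0.05 in limma, with the adjustment over all probe sets. The share of collagens called, 4 of 44 (9.09%), lay beside 12.1% of all genes tested, with 5.51% higher and 6.6% lower. The signal of 34 collagens was above background in at least 1 group, with background set at 20.7 intensity units. This is the top of the range that holds 95% of the mean signals of 1379 sensory receptor genes (symbols starting Olfr or Vmn), which are mostly silent outside the nose. Of those 34, 4 were called (11.8%), beside 21.7% of all genes above background, 9.77% higher and 11.9% lower. The median log2 difference, Zc3h10 shRNA minus scramble, was 0.03 over the 44 collagens and 0.01 over all genes.

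**Figure D1:**
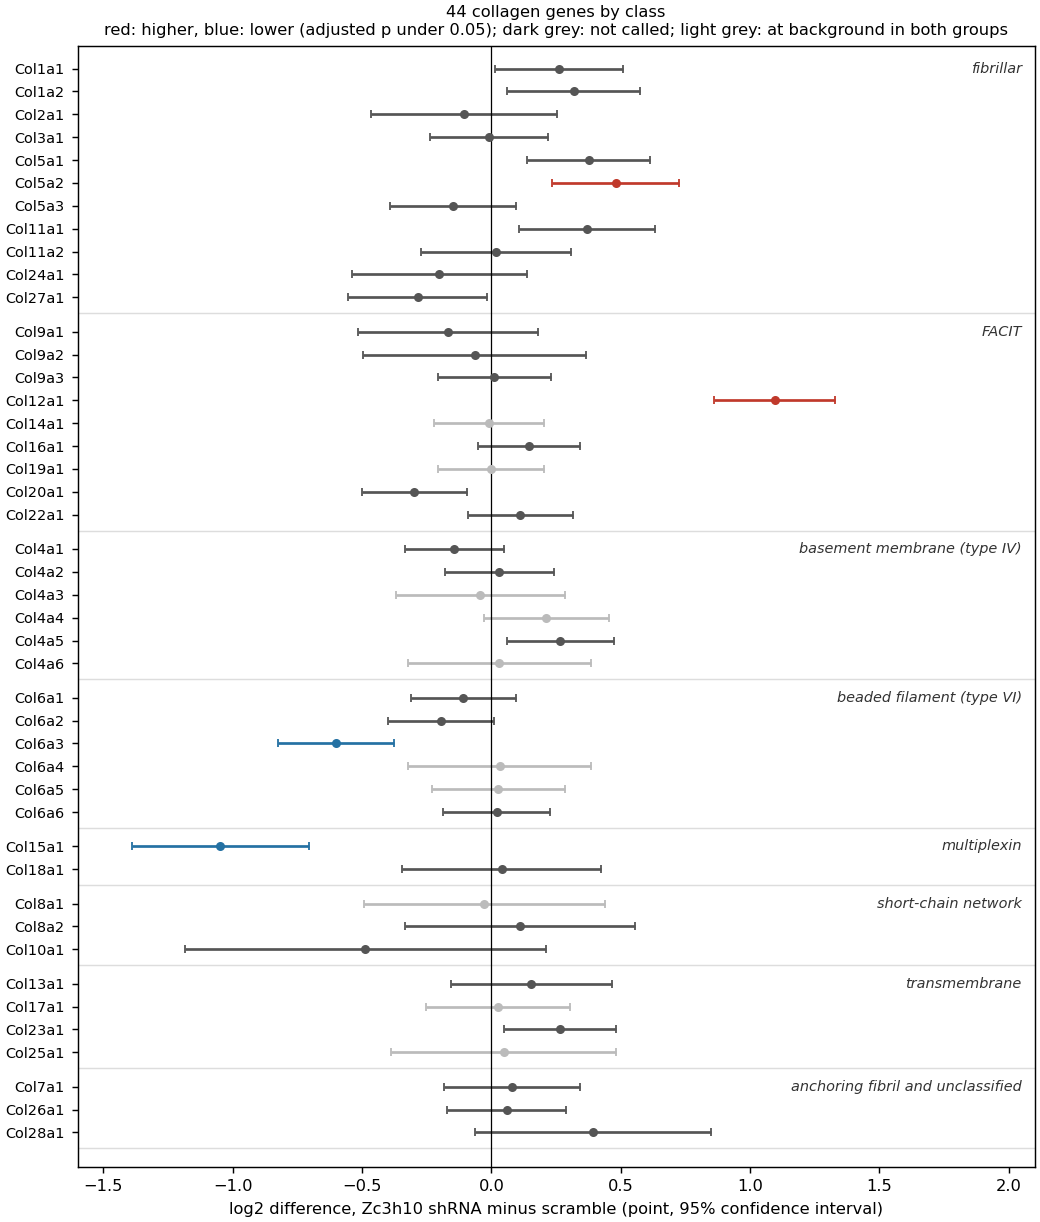
Log2 difference between Zc3h10 shRNA and scramble cells for each of the 44 collagen genes, grouped by class; points are the difference of the means of 3 arrays per group and bars the 95% confidence interval of the limma fit. Most intervals cross 0 or come near it, with Col12a1 at 1.09 and Col15a1 at −1.05 farthest from it on either side.

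The sequences before the start sites of 4 collagen genes are shown: Col6a3 and Col15a1, which fell, Col6a1, the partner chain of Col6a3, which was not called, and Col5a1, a fibrillar chain that was not called but close to the threshold. The windows of Col12a1 and Col5a2, the collagens that rose, were not analysed here. Each printed window is the 250 bases before 1 listed start site in build GRCm38.p6, given 5′ to 3′ on the gene's own strand. The RefSeq gene record can begin elsewhere. For Col15a1 it begins at base 47207655, so the whole printed window lies inside the record. The windows of Col5a1 and Col6a3 run partly into their records, and that of Col6a1 lies before its record. Capitals mark any match on either strand to 1 of 7 short motifs, which are spelled out after the sequences.
Col6a3, chr1:90843972-90844221, minus strand: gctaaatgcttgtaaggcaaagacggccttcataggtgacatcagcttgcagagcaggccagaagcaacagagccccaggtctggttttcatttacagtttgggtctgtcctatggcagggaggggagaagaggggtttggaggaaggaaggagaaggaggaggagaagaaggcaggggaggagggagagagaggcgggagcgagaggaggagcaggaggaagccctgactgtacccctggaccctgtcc
Col6a1, chr10:76726045-76726294, minus strand: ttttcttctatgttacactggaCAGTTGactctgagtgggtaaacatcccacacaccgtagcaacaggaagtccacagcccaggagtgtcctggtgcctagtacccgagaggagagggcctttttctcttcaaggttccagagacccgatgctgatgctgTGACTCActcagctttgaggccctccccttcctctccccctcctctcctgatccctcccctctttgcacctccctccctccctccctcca
Col15a1, chr4:47207762-47208011, plus strand: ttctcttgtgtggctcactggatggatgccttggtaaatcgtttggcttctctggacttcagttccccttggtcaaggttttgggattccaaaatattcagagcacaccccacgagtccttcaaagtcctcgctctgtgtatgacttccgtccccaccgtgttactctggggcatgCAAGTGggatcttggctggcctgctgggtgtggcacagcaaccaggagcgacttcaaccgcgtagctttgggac
Col5a1, chr2:27886175-27886424, plus strand: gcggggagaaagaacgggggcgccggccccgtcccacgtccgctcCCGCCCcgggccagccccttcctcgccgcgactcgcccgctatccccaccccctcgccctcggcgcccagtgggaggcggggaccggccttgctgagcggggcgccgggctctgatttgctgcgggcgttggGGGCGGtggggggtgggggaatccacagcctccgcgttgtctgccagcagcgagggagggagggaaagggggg

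The Col6a3 window held none of the 7 motifs, and the Col15a1 window held 1 E-box. E-boxes, with the letters CANNTG, were found in 19 of the 38 windows of collagen genes (50.0%) and in 66.2% of all 32851 windows of this length. The Col6a1 window held 1 E-box and 1 AP-1 site. The letters searched for the AP-1 site were TGAGTCA, found in 1 of the collagen windows (2.63%) and in 4.46% of all windows. The Col5a1 window held 2 GC boxes and was 76.4% G or C, against a median of 59.0% over the collagen windows and 52.4% over all windows. The GC box, searched as GGGCGG, was in 22 of the collagen windows (57.9%) and in 32.7% of all windows. CCAAT boxes, searched by those 5 letters, were in 34.2% of the collagen windows and 33.9% of all windows. TATA boxes, searched as TATAAA, were in 13.2% of the former and 12.4% of the latter. TEAD sites, with the letters GGAATG, were in 10.5% and 12.6% respectively. The C/EBP site, searched as TTGCGCAA, was in 0 of the collagen windows and in 0.164% of all windows. Matches of different motifs were counted also where they overlapped. The 38 windows belong to 35 collagen genes. These matches describe letters in a window and do not show that a factor binds there.

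The fibrillar class has 11 genes, of which Col5a2 rose and 10 were not called, with a median log2 difference of 0.02 and a range of −0.28 to 0.48. Col5a2 encodes a chain of type V collagen, which sits inside type I fibrils and controls their start and width. Its intensities were 390, 309 and 333 in scramble replicates 1, 2 and 3 and 485, 483 and 465 in the same order of shRNA replicates. All shRNA arrays were above all scramble arrays, and the log2 difference was 0.48 ± 0.11 (SE, 1.39-fold; limma, adjusted p = 0.0276). This call was lost when any 1 array other than scramble replicate 1 was left out, with adjusted p of 0.0972 without scramble replicate 2, 0.0914 without scramble replicate 3, and 0.0750, 0.0862 and 0.0766 without shRNA replicates 1, 2 and 3. It was also lost with the ordinary t statistic (adjusted p = 0.0895) and with a replicate block (adjusted p = 0.0519).

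The other abundant type V chain gene, Col5a1, read 353, 288 and 342 in scramble and 429, 423 and 420 in shRNA cells. The groups did not overlap, and the log2 difference of 0.38 ± 0.10 did not pass (limma, adjusted p = 0.0604). It passed with quantile normalization (adjusted p = 0.0479), with an offset of 16 before log2 (0.0204), without dim probe sets (0.0218) and with an intensity trend in the prior (0.0107). A further Col5a1 probe set lay at background, at 19.1 ± 2.70 and 18.6 ± 4.10 intensity units (SD, n = 3), and averaging both probe sets gave 0.16. Col11a1, whose chain is closely related to that of Col5a1, read 305, 240 and 304 in scramble and 375, 354 and 361 in shRNA cells, again without overlap (log2 difference 0.37 ± 0.11; limma, adjusted p = 0.0922). Col5a3, also of type V, was at −0.15 ± 0.11 (limma, adjusted p = 0.495), with groups that overlapped.

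Type I collagen, the main fibril of connective tissue, is built from the chains of Col1a1 and Col1a2. Col1a1 read 2108, 1665 and 1960 in scramble and 2327, 2257 and 2256 in shRNA cells. Col1a2 read 2234, 1801 and 2186 in scramble and 2732, 2451 and 2545 in shRNA cells. For each gene every shRNA array was above every scramble array, but the log2 differences of 0.26 ± 0.11 and 0.32 ± 0.11 did not pass (limma, adjusted p = 0.204 and 0.133). They passed with an intensity trend in the prior (adjusted p = 0.0483 and 0.0239). Col3a1, of type III collagen, which forms mixed fibrils with type I, read 1840, 1528 and 1630 in scramble and 1718, 1630 and 1605 in shRNA cells. The groups overlapped, with a log2 difference of −0.01 (95% confidence interval −0.24 to 0.22). These are among the strongest collagen signals, although signals of different probe sets do not give the relative amounts of their transcripts.

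Among the remaining fibrillar genes, Col27a1 was at −0.28 ± 0.12 without overlap between groups (limma, adjusted p = 0.201). Col2a1, the main collagen of cartilage, was at −0.11 ± 0.16, Col24a1 at −0.20 ± 0.15 and Col11a2 at 0.02 ± 0.13, all with overlapping groups. Scramble replicate 2 was the lowest scramble array for 9 of the 11 fibrillar genes and for 22 of the 34 collagens above background. Over all 11748 genes above background it was the lowest for 33.2%. Without it the log2 difference was 0.41 for Col5a2, and the lowest leave-one-out values were 0.17 for Col1a1, 0.22 for Col1a2, 0.29 for Col5a1 and 0.26 for Col11a1.

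**Figure D2:**
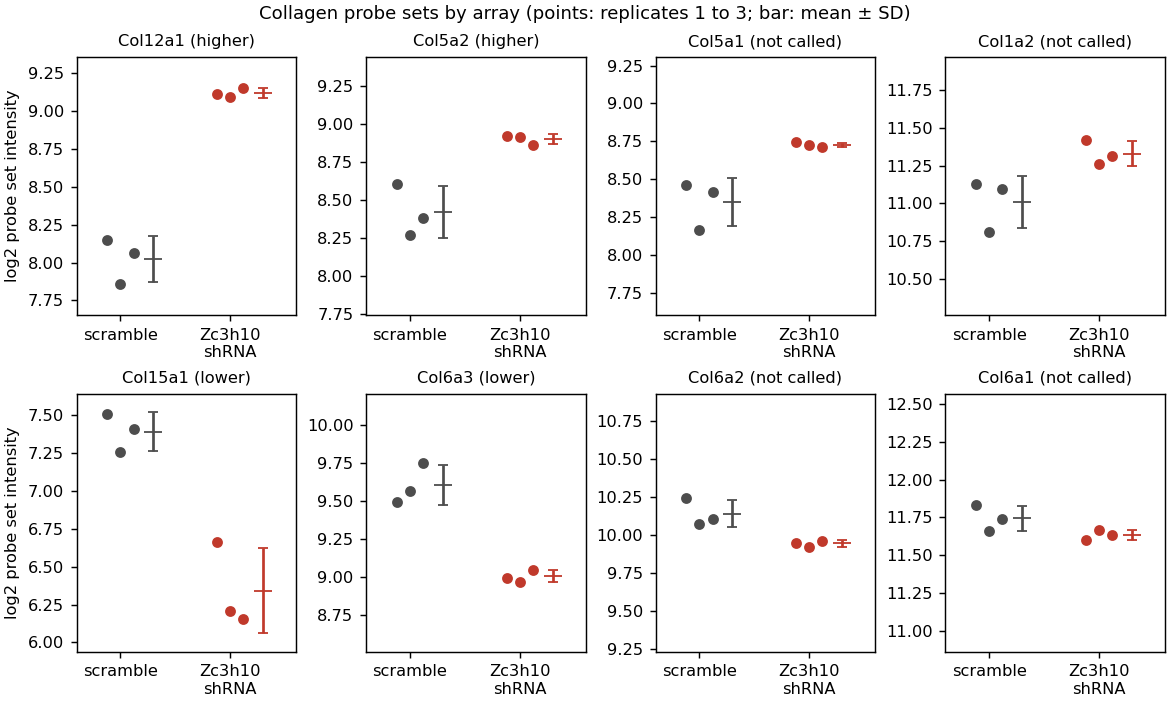
Log2 probe set intensity of 8 collagen genes on each array, scramble in grey and Zc3h10 shRNA in red, 3 arrays per group; bars give the mean ± SD and every panel spans the same range of log2 units. For Col12a1 and Col15a1 the groups lie about 1 log2 unit apart, while for Col6a1 they overlap.

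The FACIT class has 9 genes, of which Col12a1 rose and 8 were not called, with a median log2 difference of 0.00 and a range of −0.30 to 1.09. The type XII collagen made from Col12a1 lies on the surface of type I fibrils and links them to other matrix molecules. Col12a1 read 284, 232 and 267 in scramble and 554, 544 and 569 in shRNA cells. The shRNA arrays lay close together and far above the scramble arrays, and the log2 difference of 1.09 ± 0.10 passed (limma, adjusted p = 0.000881). It stayed called without each single array in turn, at 1.01 to 1.16, and under all 10 other settings, at 1.05 to 1.13.

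Col14a1, whose product is the FACIT collagen closest to type XII, was at background in both groups, with means of 10.2 and 10.1 intensity units, so no change could be read there. Col20a1 read 67.7, 62.3 and 67.9 in scramble and 53.9, 51.4 and 55.7 in shRNA cells. The groups did not overlap, and the log2 difference of −0.30 ± 0.09 did not pass (limma, adjusted p = 0.0791). It passed with the offset (adjusted p = 0.0167), without dim probe sets (0.0243) and with probe sets averaged per gene (0.0499). Col16a1 was at 0.14 ± 0.09 without overlap (limma, adjusted p = 0.397), and Col22a1 at 0.11 ± 0.09. The type IX chains, partners of cartilage fibrils, were at −0.17 ± 0.15 for Col9a1, −0.07 ± 0.19 for Col9a2 and 0.01 ± 0.09 for Col9a3, with overlapping groups. Col19a1 was at background.

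The type VI class has 6 genes, of which Col6a3 fell and 5 were not called, with a median log2 difference of −0.04 and a range of −0.60 to 0.03. The common type VI molecule joins 1 chain each of Col6a1, Col6a2 and Col6a3. The tail cut from the Col6a3 chain is known as endotrophin, a signalling peptide of adipose tissue. Col6a3 read 722, 759 and 862 in scramble and 510, 501 and 529 in shRNA cells. No arrays overlapped, and the log2 difference of −0.60 ± 0.10 (1.52-fold lower) passed (limma, adjusted p = 0.00724). It stayed called without each single array, at −0.66 to −0.53, and under all 10 other settings.

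The other chains of the molecule differed less. Col6a1 read 3640, 3237 and 3426 in scramble and 3113, 3257 and 3175 in shRNA cells, which overlap, with a log2 difference of −0.11 (95% confidence interval −0.31 to 0.09; limma, adjusted p = 0.558). Col6a2 read 1213, 1079 and 1101 in scramble and 990, 970 and 999 in shRNA cells, which do not overlap, at −0.20 (95% confidence interval −0.40 to 0.01; limma, adjusted p = 0.250). Within each array, the log2 signal of Col6a3 less that of Col6a1 averaged −2.14 ± 0.18 (SD, n = 3) in scramble and −2.63 ± 0.06 (SD, n = 3) in shRNA cells, without overlap. Col6a3 less Col6a2 moved from −0.54 ± 0.20 to −0.94 ± 0.02 (SD, n = 3 each), also without overlap. The chains that can take its place, Col6a4 and Col6a5, were at background, and Col6a6, at 24.4 and 24.7 intensity units, was just above it.

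**Figure D3:**
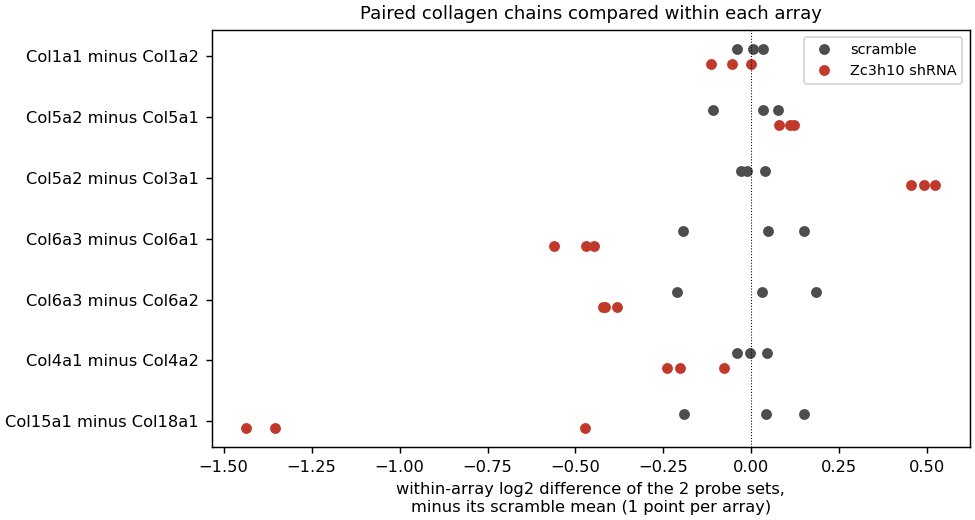
Within-array log2 difference between the probe sets of paired collagen chains, shown relative to its scramble mean, 1 point per array, 3 arrays per group. The shRNA arrays lie below the scramble arrays for Col6a3 against Col6a1 and Col6a2, Col15a1 against Col18a1 and Col4a1 against Col4a2. They lie above them for Col5a2 against Col3a1 and against Col5a1. The groups overlap for Col1a1 against Col1a2.

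Such within-array differences were taken for 7 pairs of chains chosen after the values were seen. In 2-sided exact permutation tests p was 0.1 for all pairs but Col1a1 and Col1a2 (0.2), and 0.117 and 0.2 after Benjamini-Hochberg adjustment over the 7 pairs. None passed, and 3 arrays against 3 cannot give a p below 0.1. Col5a2 and Col3a1 are neighbouring genes in the RefSeq annotation. The difference Col5a2 less Col3a1 rose by 0.49, from −2.28 ± 0.04 to −1.79 ± 0.03 (SD, n = 3 each). For the type I pair, Col1a1 less Col1a2, it was −0.12 ± 0.04 and −0.17 ± 0.06 with overlapping groups. For Col5a2 less Col5a1 it was 0.07 ± 0.10 and 0.17 ± 0.02, and for Col4a1 less Col4a2 0.19 ± 0.04 and 0.02 ± 0.09, both without overlap.

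The multiplexins, collagens of the basement membrane zone that carry an endostatin-type domain at their end, are Col15a1 and Col18a1. Col15a1 read 182, 153 and 170 in scramble and 101, 74.0 and 71.2 in shRNA cells. Every shRNA array was below every scramble array, with shRNA replicate 1 the highest of the shRNA arrays, and the log2 difference of −1.05 ± 0.15 passed (limma, adjusted p = 0.00408). It stayed called without each single array, at −1.21 to −0.95, but not with the ordinary t statistic (adjusted p = 0.0578). Col18a1 read 31.5, 24.6 and 34.5 in scramble and 25.0, 33.7 and 34.3 in shRNA cells, which overlap (log2 difference 0.04 ± 0.17; limma, adjusted p = 0.933). Col15a1 less Col18a1 within arrays was 2.49 ± 0.17 and 1.40 ± 0.53 (SD, n = 3 each).

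None of the 6 type IV genes was called (limma; 1 had an unadjusted p under 0.05, Col4a5), with a median log2 difference of 0.03 and a range of −0.14 to 0.27. Col4a1 and Col4a2, whose chains form the type IV network found in nearly all basement membranes, lie head to head in the annotation and share their start region. Col4a1 read 455, 453 and 485 in scramble and 420, 415 and 425 in shRNA cells, without overlap (log2 difference −0.14, 95% confidence interval −0.34 to 0.05; limma, adjusted p = 0.385). Col4a2 read 386, 408 and 426 in scramble and 388, 430 and 429 in shRNA cells, with overlap (0.03, 95% confidence interval −0.18 to 0.24). Col4a5 read 93.8, 94.6 and 92.3 in scramble and 111, 121 and 106 in shRNA cells, without overlap. Its log2 difference of 0.27 ± 0.09 did not pass (limma, adjusted p = 0.115), but did with the offset (0.0239) and without dim probe sets (0.0379). Its head-to-head neighbour Col4a6, and Col4a3 and Col4a4, were at background.

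The remaining classes held no called gene. Among the transmembrane collagens, which stay anchored in the cell surface, Col23a1 read 115, 105 and 108 in scramble and 122, 139 and 135 in shRNA cells, without overlap (log2 difference 0.27 ± 0.09; limma, adjusted p = 0.137). It passed with the offset (adjusted p = 0.0393). Col13a1 was at 0.15 ± 0.13, and Col17a1 and Col25a1 were at background. Among short-chain network collagens, Col8a2 read 43.4, 32.9 and 44.5 in scramble and 56.4, 40.8 and 34.8 in shRNA cells, with overlap. Col10a1, the collagen of hypertrophic cartilage, was at −0.49 ± 0.30, with 41.7 on scramble replicate 3 against 23.6 and 16.6 on the other scramble arrays, and Col8a1 was at background. Col28a1 read 47.8, 40.5 and 39.4 in scramble and 76.9, 43.9 and 51.3 in shRNA cells, which overlap (0.39 ± 0.20; limma, adjusted p = 0.308). The anchoring fibril gene Col7a1 (0.08 ± 0.11) and Col26a1 (0.06 ± 0.10) had overlapping groups too.

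Across all classes the groups did not overlap for 15 of the 44 collagens (34.1%), 9 higher and 6 lower, beside 31.9% of all genes tested. An unadjusted p under 0.05 (limma) was found for 12. The share of all genes at that level was not taken, so this count is not read as a trait of collagens. The class medians were −0.04 to 0.10, apart from −0.50 for the 2 multiplexins, beside 0.01 over all genes. Over members above background in at least 1 group, the medians were −0.15 for the 4 type VI genes and 0.21 for the 2 transmembrane genes. Over all genes above background the median was 0.01. The median of −0.19 for the 2 short-chain network genes rests on Col10a1, which was above background in scramble cells only (means 27.3 and 18.3). It is therefore not read as a trait of that class. No class was tested as a whole.

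Many of the genes that modify, trim, cross-link, bind or receive collagens were called, most of them higher. Of 90 such genes listed, 85 were measured, and 25 were higher (29.4%, beside 5.51% of all genes) and 10 lower (11.8%, beside 6.6%). Of the 71 above background, 35 were called (49.3%, beside 21.7%). The lists were chosen with earlier results of these data known, so these shares describe the listed genes only. No list was tested as a whole. The 25 became 10 without scramble replicate 2 or shRNA replicate 2 and 11 without scramble replicate 3 or shRNA replicate 3. The 10 became 6 without scramble replicate 1, scramble replicate 3 or shRNA replicate 2, and 4 without shRNA replicate 3. With a replicate block the counts were 11 higher and 9 lower. Without each single array in turn, 10 of the higher and 4 of the lower genes stayed called every time.

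Enzymes that act on the chains inside the cell changed in both directions. Of 13 genes of hydroxylation and glycosylation, 1 rose and 3 fell, with a median of −0.07. P4ha1, a catalytic subunit of prolyl hydroxylase, which stabilises the helix, fell by 0.67 on the log2 scale (SE 0.13; limma, adjusted p = 0.0145). Its relative P4ha3 rose by 0.43 (adjusted p = 0.0375), and Colgalt1, which adds galactose to hydroxylysine, fell by 0.49 (adjusted p = 0.0174). None of these calls stayed without every single array. Of 11 chaperone and export genes, Sec24d rose by 0.37 (limma, adjusted p = 0.0297) and Sec23a fell by 0.56 (adjusted p = 0.0152). They encode subunits of the vesicle coat that carries procollagen out of the endoplasmic reticulum, and these calls too were lost without some single arrays. The collagen chaperone gene Serpinh1 was at 0.34 ± 0.09 and did not pass (limma, adjusted p = 0.0601).

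Outside the cell, 4 of 9 genes of propeptide removal rose and 0 fell, with a median of −0.03, or 0.51 over the 5 above background. Pcolce, which enhances the cutting of the procollagen tail, read 643, 569 and 653 in scramble and 975, 1058 and 1023 in shRNA cells, and rose by 0.71 ± 0.09 (limma, adjusted p = 0.00307). Bmp1, the protease that makes this cut, rose by 0.51 ± 0.10 (adjusted p = 0.0134), and Adamts14, a protease of the other end, by 0.46 (adjusted p = 0.0172), or 0.23 and not called with its probe sets averaged. Only Pcolce of these stayed called without each single array.

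In cross-linking, 3 of 6 genes rose and Tgm2 fell, with a median of 0.37. The lysyl oxidase family gene Loxl3 rose by 0.71 ± 0.11 (limma, adjusted p = 0.00597) and Pxdn, which cross-links type IV collagen, by 0.71 ± 0.11 (adjusted p = 0.00548). The transglutaminase gene Tgm2 read 277, 301 and 302 in scramble and 165, 158 and 150 in shRNA cells, and fell by 0.89 on the log2 scale (SE 0.09; limma, adjusted p = 0.00108). These calls stayed without each single array. The main lysyl oxidase gene Lox was at 0.04 ± 0.09 (limma, adjusted p = 0.866).

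**Figure D4:**
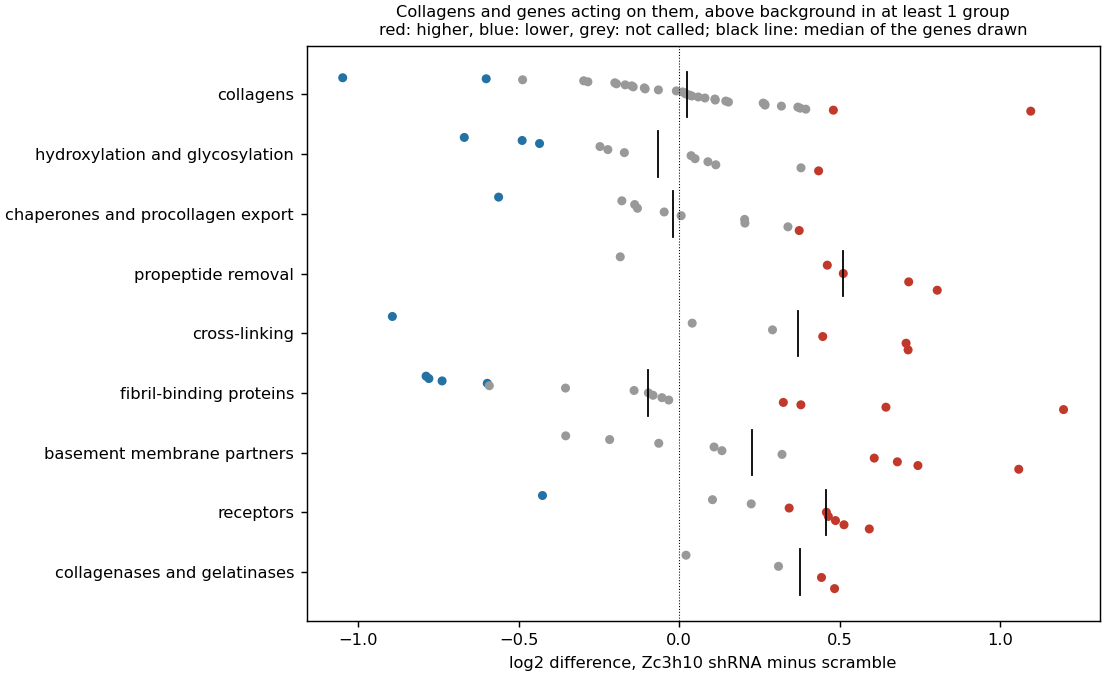
Log2 difference between Zc3h10 shRNA and scramble cells for collagens and for 8 lists of genes that act on or with them, 1 point per gene above background in at least 1 group, coloured by the limma call. The median of the collagens drawn is 0.03. The highest list medians are 0.51 for propeptide removal and 0.46 for receptors. Those below 0 are −0.10 for fibril-binding proteins, −0.07 for hydroxylation and glycosylation and −0.02 for chaperones and export.

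Of 15 genes of fibril-binding proteins, 4 were higher and 4 lower, with a median of −0.10 and 11 log2 differences below 0. The 4 higher became 2 without shRNA replicate 2 or 3 or any 1 scramble array, and the 4 lower became 3 to 5 without single arrays. The higher calls of Thbs2 and Ogn stayed in 0 and 1 of the 6 fits that left out an array. Fn1, fibronectin, on which cells lay down collagen fibrils, read 3177, 2554 and 2978 in scramble and 6211, 6736 and 6960 in shRNA cells. It rose by 1.20 ± 0.11 (2.29-fold; limma, adjusted p = 0.000881). Thbs1, thrombospondin, rose by 0.64 ± 0.11 (adjusted p = 0.0104), while Podn, podocan, fell by 0.60 on the log2 scale (SE 0.09; limma, adjusted p = 0.00540). These calls stayed without each single array. The small proteoglycan gene Dcn, decorin, was at −0.03 ± 0.11.

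Among 10 partners of type IV collagen in basement membranes, 4 rose and 0 fell, with a median of 0.23. Hspg2, perlecan, read 331, 272 and 321 in scramble and 611, 686 and 622 in shRNA cells, and rose by 1.06 ± 0.11 (limma, adjusted p = 0.00117). Nid1, nidogen, which joins the laminin and collagen networks, rose by 0.68 ± 0.08 (adjusted p = 0.00237), and the laminin chain gene Lamc1 by 0.74 ± 0.12 (adjusted p = 0.00636). All 4, the last being the laminin chain gene Lamb2, stayed called without each single array, while Lamc1 (adjusted p = 0.0548) and Lamb2 (0.0529) missed with the ordinary t statistic.

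Of 12 receptor genes, 6 rose and Cspg4 fell, with a median of 0.28. Ddr1, a receptor kinase for collagen, read 199, 184 and 188 in scramble and 287, 293 and 281 in shRNA cells, and rose by 0.59 ± 0.08 (limma, adjusted p = 0.00414), or 0.33 with its probe sets averaged. Antxr1, an anthrax toxin receptor that binds collagen, rose by 0.46 (adjusted p = 0.0175) and Mrc2, which takes up collagen fragments, by 0.49 (adjusted p = 0.0263). Only Ddr1 of the 6 stayed called without each single array: the count was 1 without scramble replicate 2, scramble replicate 3, shRNA replicate 2 or shRNA replicate 3. Of 9 collagenases, gelatinases and related proteases, Adamts1 rose by 0.44 and Mmp16 by 0.48 (limma, adjusted p = 0.0184 and 0.0322). Adamts1 is known mainly for cutting proteoglycans, and neither call stayed without each single array. Mmp14 (0.02 ± 0.10) and Mmp2 (0.31 ± 0.11) did not pass.

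Cell type markers moved beside these values, and their part in the collagen results was not tested. Over all genes 5.51% were higher and 6.6% lower, and over those above background 9.77% and 11.9%. Of 11 adipocyte markers 10 were above background, and 10 fell. Their summed signals were 19424 to 21512 on the scramble arrays and 10292 to 11387 on the shRNA arrays. The defining gene Plin1 averaged 844 and 378 intensity units, so the labelled cell type was borne out in both groups. Of 11 fibroblast and progenitor markers, 7 above background in at least 1 group, 5 rose and 1 fell (summed 3836 to 4050, and 4853 to 5142). Fap, which rose, was at background in scramble cells (mean 11.7). The 1 that fell was Pdgfra, with means of 1364 and 867. Of 8 smooth muscle and myofibroblast markers, 7 above background in at least 1 group, 4 rose and 1 fell (1877 to 2338, and 3593 to 3923). The 1 that fell, Des, was at background in shRNA cells (mean 18.3). Fewer cells of a type and less RNA per cell cannot be told apart here. Of 8 chondrocyte markers only Sox9 and Cnmd were above background, and Cnmd fell; the defining gene Acan was at background. Of 6 osteoblast markers measured, 4 above background in at least 1 group, 1 rose and 3 fell. The listed osteoblast markers Runx2 and Spp1 were not analysed here. Bglap, which fell, was at background in both groups, with means of 20.2 and 14.4. Dmp1, which rose, was at background in scramble cells (mean 16.4), and Ibsp, which fell, was so in shRNA cells. For skeletal muscle 0 of 8 were called, and for macrophages 0 of 6, with 3 and 2 above background. Endothelial markers were at background, 0 of 6 above it. Zc3h10 itself read 25.9, 39.0 and 35.3 in scramble and 25.2, 30.2 and 22.9 in shRNA cells, a log2 difference of −0.34 ± 0.17 that did not pass (limma, adjusted p = 0.301; two-sided exact permutation p = 0.2, where 0.1 is the smallest possible). The array medians were 15.6 to 16.1 intensity units. With 3 arrays in each group, precision is limited throughout.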

How the data were processed

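The authors deposited 1 linear intensity per probe set for each of 6 arrays, 1 array per biological replicate. The submitters' processing notes name Affymetrix Expression Console and Partek 6.6, while the sources used here do not state the normalization. The scale was read from the deposited values, and the near-equal array medians show scaling before deposit. Log2 was taken with no offset. Each of 33079 probe sets was fitted in R 4.3.3 by limma 3.58.1 (functions lmFit and eBayes, two-sided, 4 residual and 4.00 prior degrees of freedom), with Benjamini-Hochberg adjustment over all of them. Of these, 23043 name 1 gene, and the probe set with the highest mean stood for a gene. A probe set that names Col6a1 with 3 other genes was left out. Named were all collagens, up to 3 called genes with the smallest p per list, and Zc3h10. Genes outside this rule, such as Serpinh1, Lox, Dcn, Mmp14, Mmp2, Lamb2, Thbs2, Ogn, Pdgfra, Fap and Des, were chosen after their values were seen. The collagens and lists were chosen with earlier results of these data known. The fit was tested on simulated data. Symbols matched the RefSeq table (GRCm38.p6) for all 44 collagens. Plod3, Fkbp10, Adamts2, Loxl2 and Itga10, the listed markers Cfd, Ly6a, Runx2 and Spp1, and protein sequences were not analysed here. Alternatives were 3 other scalings, an offset of 16, a filter on dim probe sets, an intensity trend, the ordinary t statistic, array weights, a replicate block, each array left out, and probe sets averaged per gene.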

Additional observations from a re-analysis of the deposited data

How the results depend on the processing

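Col12a1 and Col6a3 stayed called with the same sign under all 16 alternatives run, and Col15a1 under all but the ordinary t statistic. The 2 higher collagens became 6 with an offset of 16 before log2, 5 with dim probe sets left out, 6 with an intensity trend in the prior, 1 with the ordinary t statistic and 1 to 2 with an array left out. The 2 lower became 1 with the ordinary t statistic and, with Col20a1 added, 3 with the offset, with dim probe sets left out and with probe sets averaged per gene. The replicate number was not found to pair the arrays, since same-numbered arrays correlated in their deviations from the group means at 0.08, 0.00 and 0.04; with a replicate block 1 collagen was higher and 2 lower, and 11 pathway genes were higher. The pathway counts of 25 higher and 10 lower became 15 and 3 with the ordinary t statistic, and 10 to 21 and 4 to 11 with an array left out. The type VI median was −0.15 with dim probe sets left out. With an array left out the type IV median ranged from −0.026 to 0.13 and that of the anchoring fibril and unclassified genes from 0.053 to 0.18. No difference above changed sign past the threshold, and the cause of the changes was not tested. Values near 20.7 intensity units are limited by background.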
